A study of Mus musculus with 20 samples.

Results

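The expression of 2 mouse sphere cultures was compared: tumorspheres of mice hemizygous for a MYCN transgene, a model of neuroblastoma, and neurospheres of wild-type mice. The arrays were taken by the sample titles, 2 tumorsphere arrays and 2 neurosphere arrays, 4 of the 20 arrays of the series. Spheres are floating clusters of cells that grow from dissociated tissue. The tumorspheres have the genotype MYCN Tg hemizygote and the genetic background mixed 129+Ter/SvJcl, and the neurospheres are wild type with the background 129+Ter/SvJcl. All mice came from a colony maintained by matings to 129+Ter/SvJcl animals. For context the text also uses 4 tumors of hemizygous mice and 4 ganglia of wild-type mice, with the same genotype and background labels as the tumorspheres and neurospheres, respectively. The labels do not give the promoter of the transgene, the age of the mice, the tissue from which the neurospheres were grown, the culture medium or the passage. Genotype and genetic background differ together between the 2 cultures. Tissue of origin, medium and passage may differ as well, and none of these can be told apart.

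Each value is the intensity of a probe set on an Affymetrix array, hybridized with biotin-labeled cRNA (2-cycle amplification, 40 ng input), as the authors deposited it. For a gene with several probe sets the one brightest on average was used, and differences are between means of log2(intensity + 16). This scale understates the change of dim genes. Of 18193 genes, 15139 were bright enough to be tested with limma in a model of all 7 groups of the series, and adjusted p (Benjamini-Hochberg over these genes) under 0.05 was the threshold for the words rose and fell. Whether the 2 arrays of a culture stand for separate animals is not stated in the labels, and the p-values measure only the spread between arrays within the 7 groups, which may be technical.

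Neuroblastoma arises from the sympathoadrenal branch of the neural crest, embryonic cells that leave the dorsal neural tube and form sympathetic neurons and chromaffin cells. These cells are specified by the transcription factors Phox2a, Hand2, Gata3 and Isl1 and make catecholamines from tyrosine in successive enzyme steps that begin with tyrosine hydroxylase. Neurospheres are the classical culture of neural stem cells of the central nervous system, grown in EGF and FGF2, and such cells carry Sox2, brain lipid-binding protein and active Notch signaling, which keeps them from differentiating into neurons.

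The 2 tumorsphere arrays correlated at 0.985 over all probe sets and the 2 neurosphere arrays at 0.943, and 1.40% and 13.4% of the genes tested differed by more than 1 log2 unit between the 2 arrays of the culture. The ratio of the 3' to the 5' control probe set of beta-actin, which rises when RNA is short, was 2.64 and 2.34 in the tumorspheres and 7.77 and 3.78 in neurospheres 1 and 2. The ratio for GAPDH was 3.13 and 2.68 in the tumorspheres and 3.37 and 11.5 in the neurospheres. The neurospheres therefore stood apart from each other as well as from the tumorspheres. The highest intensity was 13238 on neurosphere 1 and between 5546 and 6357 on the other 3 arrays. Among the other arrays of the series, the tumorspheres were closest to hemizygous tumor 3, with correlations of 0.959 and 0.955. For neurospheres 1 and 2 the highest correlation with any array other than the partner was 0.863 and 0.881.

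Of the 15139 genes, 5811 passed the threshold (38.4%), 3551 of them higher in the tumorspheres (23.5%) and 2260 lower (14.9%). The median log2 difference over all genes tested was 0.11. With the beta-actin ratio of each array as a covariate, 2825 genes passed, 1606 higher and 1219 lower. Of the list members described below, Axin2, Bmp6, Bmpr1b, Cnp, Col3a1, Dbh, Dlx2, Dtx1, Dusp4, Eng, Fbl, Gap43, Gfra3, H2-D1, Hey2, Hoxa5, Igf1r, Igf2, Insig1, Lgr5, Maoa, Map2, Mga, Mxi1, Mycl, Ncl, Nop56, Notch2, Npy, Odc1, Pmp22, Sfrp1, Slc2a1, Tbr1, Top2a and Twist2 lost the call with this covariate. Mybbp1a and Utp20 also lost it. With the GAPDH ratio as the covariate instead, 5940 genes passed, 3528 higher and 2412 lower. Of the members described below, Bmp6, Dusp6, Elavl4, Grem1, Hes1, Hoxa5, Mfng, Mga and Mnt lost the call with the GAPDH ratio. So did Mxi1, Myc, Ndrg1, Npy, Spry4, Tbr1, Tgfbr2 and Twist2. When the difference had to exceed 2-fold, 1324 passed, 681 higher and 643 lower. The values of the 2 cultures did not overlap for 66.9% of the genes tested, 39.5% higher and 27.4% lower in the tumorspheres. The counts for each list of genes are read against these shares.

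The gene lists follow lineage first and signaling second. The mouse Mycn gene, the relative of the transgene, read 352 and 583 in the tumorspheres and 256 and 299 in the neurospheres, with a log2 difference of 0.68 (SE 0.39, adjusted p = 0.19). A dimmer Mycn probe set read 92.2 and 95.9 against 1.84 and 5.51. Whether either probe set reads the transgene is not known here, and neither is taken as its level.

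The sympathetic transcription factors separated the cultures. Of the 18 members tested, 10 rose and 1 fell, with a median log2 difference of 1.15. Isl1, a homeodomain factor of sympathetic and sensory neurons, read 2364 and 2460 in the tumorspheres and 12.1 and 0.727 in the neurospheres, and rose by 6.81 on the log2 scale (SE 0.30, adjusted p = 1.09e-11). Tfap2b, an AP-2 factor of the sympathetic lineage, read 2532 and 2458 in the tumorspheres and 11.9 and 2.13 in the neurospheres, a log2 difference of 6.80 (SE 0.23, adjusted p = 1.22e-12). The bright arrays were the 2 tumorspheres for both genes, and the neurospheres lay below the array median, which was between 14.9 and 20.5 on the 4 arrays. Hand2, the basic helix-loop-helix factor of noradrenergic differentiation, read 1216 and 1332 in the tumorspheres and 8.03 and 5.73 in the neurospheres (log2 difference 5.82, SE 0.25, adjusted p = 1.09e-11). Phox2a, a homeodomain factor that activates the noradrenaline synthesis genes, read 229 and 310.4 in the tumorspheres and 10.8 and 3.6 in the neurospheres (log2 difference 3.63, SE 0.53, adjusted p = 3.31e-05). Gata3, a zinc finger factor required for sympathetic neurons, read 250.1 and 116 in the tumorspheres and 7.26 and 0.85 in the neurospheres and rose by 3.24 on the log2 scale (SE 0.42, adjusted p = 7.57e-06). The 5 factors did not overlap between the cultures.

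Insm1 was also expressed in the neurospheres at a moderate level. This zinc finger factor of neuroendocrine progenitors read 927 and 908 in the tumorspheres and 256 and 192 in the neurospheres, a difference of 1.97 (SE 0.29, adjusted p = 2.97e-05). Its relative Insm2 read 813 and 965 in the tumorspheres and 1.33 and 0.482 in the neurospheres, among the 12 largest rises of the genes ranked, at 5.74 (SE 0.33, adjusted p = 4.61e-10). The ranking left out clone names, predicted genes, sex-linked genes and genes whose values overlapped between the cultures. The only member of the list that fell was Meis2, a TALE homeodomain factor, at 371 and 83.4 in the tumorspheres and 1924 and 1284 in the neurospheres (log2 difference -3.02, SE 0.47, adjusted p = 6.79e-05). Sox11, a factor of immature neurons, read 1408 and 1187 in the tumorspheres and 1359 and 1053 in the neurospheres, and the cultures overlapped. As in any bulk sample, fewer cells of a type and less RNA per cell cannot be told apart.

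The catecholamine machinery was bright in the tumorspheres and dim in the neurospheres, with exceptions named below. Of the 19 members tested, 13 rose and 1 fell, with a median log2 difference of 2.04. Th, tyrosine hydroxylase, the rate-limiting enzyme of the pathway, read 3097 and 3328 in the tumorspheres and 14.1 and 9.72 in the neurospheres, the highest log2 difference among the named genes, at 6.86 (SE 0.68, adjusted p = 3.88e-07). Ddc, the decarboxylase that makes dopamine, read 3345 and 2598 in the tumorspheres and 10.2 and 10.6 in the neurospheres (log2 difference 6.81, SE 0.29, adjusted p = 1.03e-11). Gch1, which makes the cofactor of tyrosine hydroxylase, read 587 and 414 in the tumorspheres and 11.3 and 21.9 in the neurospheres and differed by 3.98. The first 2 enzymes and the cofactor enzyme were thus bright in both tumorspheres and dim in both neurospheres.

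Dbh and the transporters did not pass the threshold alike. Dbh, dopamine beta-hydroxylase, which makes noradrenaline, read 54 and 79.7 in the tumorspheres and 7.79 and 29.1 in the neurospheres, a log2 difference of 1.32 (SE 0.44, adjusted p = 0.0241). This difference ranged from 0.86 without neurosphere 1 to 1.78 without neurosphere 2, and the call was lost with some arrays left out, with adjusted p = 0.25 without neurosphere 1 and 0.156 without tumorsphere 2. Slc6a2, the noradrenaline transporter of the cell surface, read 15.7 and 27.4 in the tumorspheres and 13.4 and 1.06 in the neurospheres and did not pass the threshold (log2 difference 0.73, SE 0.88, adjusted p = 0.565). Slc18a1, a vesicular monoamine transporter, read 41.3 and 26.2 in the tumorspheres and 1.88 and 12.5 in the neurospheres (log2 difference 1.12, SE 0.65, adjusted p = 0.186). Slc18a2, its neuronal relative, read 186 and 162 in the tumorspheres and 5.42 and 5.95 in the neurospheres and rose by 3.13. Maoa, which degrades monoamines, was the only member that fell, at 167 and 166 in the tumorspheres and 413 and 388 in the neurospheres (log2 difference -1.19, SE 0.32, adjusted p = 0.00611).

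Several proteins and peptides of dense-core granules, the vesicles that store catecholamines and peptides, also rose. Chgb, chromogranin B, read 3943 and 3754 in the tumorspheres and 114 and 39.9 in the neurospheres (log2 difference 5.50, SE 0.47, adjusted p = 5.73e-08). Chga, chromogranin A, read 784 and 503 in the tumorspheres and 6.17 and 26.8 in the neurospheres (log2 difference 4.39, SE 0.43, adjusted p = 3.04e-07). Cyb561, the granule membrane cytochrome that regenerates ascorbate, read 1515 and 1098 in the tumorspheres and 11.8 and 5.4 in the neurospheres (log2 difference 5.74, SE 0.58, adjusted p = 4.32e-07). Cartpt, which encodes the CART peptide, read 697 and 1126 in the tumorspheres and 18 and 5.7 in the neurospheres and differed by 5.05. Npy, neuropeptide Y of sympathetic neurons, read 119 and 59.5 in the tumorspheres and 16.3 and 2.64 in the neurospheres (log2 difference 2.04, SE 0.63, adjusted p = 0.015), and its adjusted p was 0.107 without neurosphere 2 and 0.132 without tumorsphere 1. The peptide genes Gal, galanin, and Vip did not pass, with 27.5 and 27.3 in the tumorspheres and 13.8 and 9.59 in the neurospheres for Gal (log2 difference 0.65, SE 0.32, adjusted p = 0.124) and 4.96 and 6.27 in the tumorspheres and 10.8 and 5.47 in the neurospheres for Vip (log2 difference -0.15, SE 1.53, adjusted p = 0.958).

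Promoter sequences of 4 of these genes are shown because the genes rose together and the windows hold the same palindrome, the cAMP response element TGACGTCA, bound by CREB factors. Each line runs from 120 bases before the transcription start to the base before it, 5′ to 3′ on the strand of the gene, from RefSeq on GRCm38.p6, with the element in capitals. Th lies on the minus strand at chr7:142899996-142900115, Chgb on the plus strand at chr2:132781522-132781641, Scg2 on the minus strand at chr1:79440027-79440146 and Cartpt on the minus strand at chr13:99900684-99900803.
Th: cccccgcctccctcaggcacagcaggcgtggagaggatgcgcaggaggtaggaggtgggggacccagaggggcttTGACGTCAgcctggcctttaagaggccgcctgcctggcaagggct
Chgb: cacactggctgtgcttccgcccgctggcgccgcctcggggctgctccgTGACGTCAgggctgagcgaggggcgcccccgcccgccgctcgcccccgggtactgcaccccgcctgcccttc
Scg2: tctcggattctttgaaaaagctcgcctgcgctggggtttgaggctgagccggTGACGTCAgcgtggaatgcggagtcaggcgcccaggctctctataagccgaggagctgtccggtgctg
Cartpt: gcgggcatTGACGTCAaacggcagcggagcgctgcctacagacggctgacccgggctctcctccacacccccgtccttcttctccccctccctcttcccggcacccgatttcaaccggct

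The first base of the element stood 45 bases before the start of Th, 72 before that of Chgb, 68 before that of Scg2 and 112 before that of Cartpt. Among the 20 genes of the list, 14 had a promoter in the RefSeq table, and 5 of these held the letters within 250 bases before to 50 after the start, the fifth being Slc18a2. All promoters of the table held them in 1.79% of 32851 windows, and 2.03% of 27025 genes had such a window. Since the element is a palindrome, both strands give the same matches. Scg2, secretogranin II, read 126 and 129 in the tumorspheres and 48.2 and 9.11 in the neurospheres and rose by 1.83 on the log2 scale (SE 0.38, adjusted p = 0.000912), a difference that ranged from 1.16 without neurosphere 2 to 2.51 without neurosphere 1 as each sphere array was left out in turn. Slc18a2 and the 4 genes shown were among the 13 of the 19 list members tested that rose. The 4 were shown in part because they rose. The matches describe letters in a window and no binding was measured.

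Neuronal cytoskeleton and synapse genes rose with the sympathetic factors. Of the 26 members tested, 19 rose and 1 fell, with a median log2 difference of 2.56. Tubb3, the neuronal beta-tubulin, read 927 and 957 in the tumorspheres and 15.6 and 9.86 in the neurospheres (log2 difference 5.07, SE 0.42, adjusted p = 4.03e-08). Stmn2, a microtubule regulator of growth cones, read 1760 and 1504 in the tumorspheres and 83.2 and 18.2 in the neurospheres (log2 difference 4.82, SE 0.45, adjusted p = 1.85e-07). Uchl1, a neuronal ubiquitin hydrolase, read 1400 and 1388 in the tumorspheres and 29.1 and 32.6 in the neurospheres. Nefh, the heavy neurofilament, read 473 and 486 in the tumorspheres and 5.1 and 0.781 in the neurospheres. Dcx, doublecortin of migrating neurons, read 1638 and 1625 in the tumorspheres and 159.8 and 67.5 in the neurospheres (log2 difference 3.77, SE 0.38, adjusted p = 4.8e-07). For each of these 5 genes both tumorspheres lay above both neurospheres.

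Some neuronal genes were shared by the cultures. Elavl4, a neuronal RNA-binding protein, read 1358 and 1706 in the tumorspheres and 566 and 297 in the neurospheres (log2 difference 1.85, SE 0.54, adjusted p = 0.0113; adjusted p = 0.105 without neurosphere 2 and 0.0769 without tumorsphere 2). Gap43, a growth cone protein, read 1016 and 1038 in the tumorspheres and 102 and 634 in the neurospheres, so the neurospheres differed from each other, and its log2 difference of 1.91 (SE 0.55, adjusted p = 0.00996) ranged from 0.68 without neurosphere 1 to 3.14 without neurosphere 2, with adjusted p = 0.307 without neurosphere 1 and 0.0513 without tumorsphere 2. Prph, peripherin, the intermediate filament of peripheral neurons, was dim on all 4 arrays, at 3.59 and 13.2 in the tumorspheres and 1.28 and 0.653 in the neurospheres (log2 difference 0.49, SE 0.70, adjusted p = 0.632). Map2 was the only member that fell, at 521 and 395 in the tumorspheres and 3048 and 1586 in the neurospheres (log2 difference -2.24, SE 0.76, adjusted p = 0.025; adjusted p = 0.181 without neurosphere 1, 0.0665 without tumorsphere 1 and 0.124 without tumorsphere 2). Of the 3 dimmer Map2 probe sets, 2 also read lower in the tumorspheres and 1 ran the other way, with 300.9 and 293.8 in the tumorspheres and 201.9 and 194.7 in the neurospheres.

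**Figure D1:**
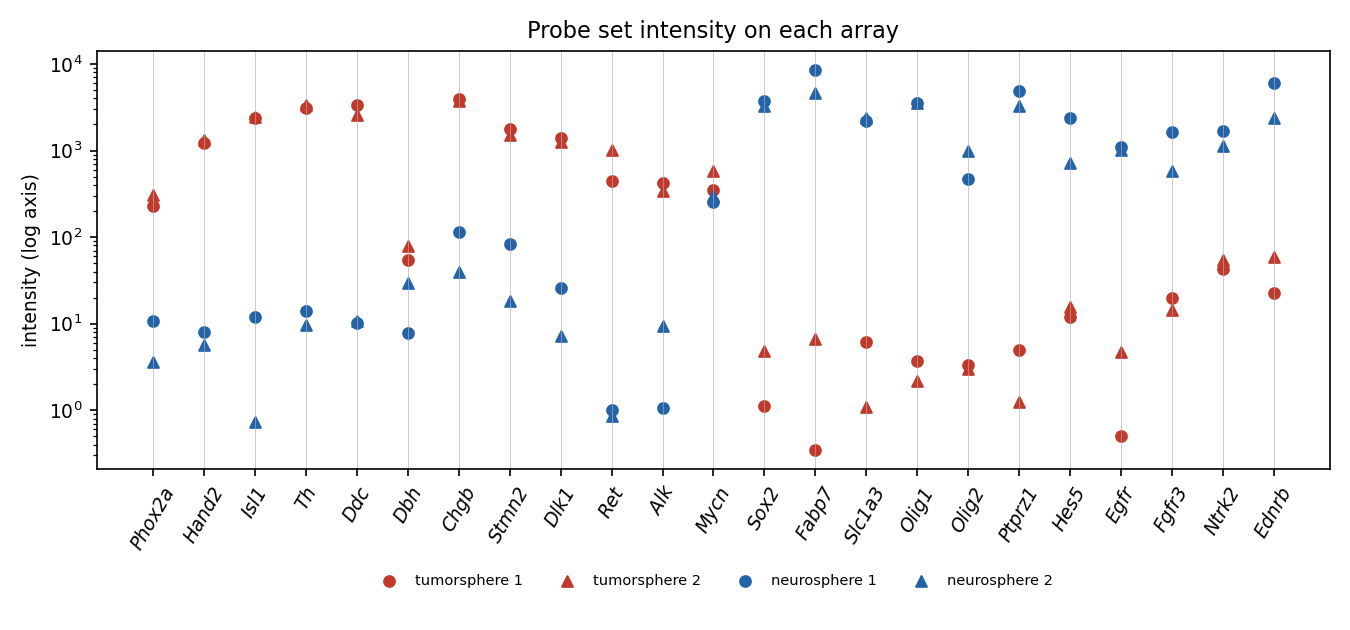
Probe set intensity on a log axis for 23 genes, with tumorspheres in red, neurospheres in blue, and circles and triangles for arrays 1 and 2. The genes from Phox2a to Alk lie higher in both tumorspheres, such as Th at 3097 and 3328 against 14.1 and 9.72, and those from Sox2 to Ednrb higher in both neurospheres, such as Sox2 at 3783 and 3296 against 1.13 and 4.81.

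The neural stem and radial glia genes showed the opposite picture. None of the 25 members tested rose and 21 fell, with a median log2 difference of -4.11. Fabp7, the brain lipid-binding protein of radial glia, read 0.346 and 6.67 in the tumorspheres and 8578 and 4615 in the neurospheres and fell by 8.36 on the log2 scale (SE 0.43, adjusted p = 1.13e-10), the largest fall among the genes ranked. Sox2, the factor that maintains neural stem cells, read 1.13 and 4.81 in the tumorspheres and 3783 and 3296 in the neurospheres, and fell by 7.55 on the log2 scale (SE 0.30, adjusted p = 4.8e-12). Slc1a3, the glial glutamate transporter GLAST, read 6.18 and 1.09 in the tumorspheres and 2179 and 2351 in the neurospheres and fell by 6.87 on the log2 scale (SE 0.33, adjusted p = 4.39e-11). Ptprz1, a receptor phosphatase of glial progenitors, read 5 and 1.23 in the tumorspheres and 4876 and 3259 in the neurospheres and fell by 7.72. The tumorsphere values of these 4 genes were at most 6.67, below the array median.

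Pax6, a homeodomain factor of radial glia and eye, read 5.82 and 9.9 in the tumorspheres and 115 and 89.2 in the neurospheres and fell by 2.30 on the log2 scale (SE 0.20, adjusted p = 7.1e-08). Sox9, which drives gliogenesis, read 5.58 and 4.92 in the tumorspheres and 586 and 543 in the neurospheres, and Vim, vimentin, 324 and 255 in the tumorspheres and 4503 and 3586 in the neurospheres. Vimentin in the tumorspheres lay above the array median and Sox9 below it. Nes, nestin, the filament most used to mark neural stem cells, read 30.5 and 41.6 in the tumorspheres and 58.1 and 51 in the neurospheres and did not pass the threshold (log2 difference -0.45, SE 0.22, adjusted p = 0.123). Gfap, the filament of mature astrocytes, read 17.3 and 5.67 in the tumorspheres and 29.4 and 4.36 in the neurospheres, and the cultures overlapped (log2 difference -0.18, SE 0.34, adjusted p = 0.725). Nr2e1 was too dim on these arrays to be tested.

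Oligodendrocyte progenitor genes were bright in the neurospheres. None of the 18 members tested rose and 13 fell, with a median log2 difference of -2.44. Olig1, a lineage-defining helix-loop-helix factor, read 3.66 and 2.19 in the tumorspheres and 3563 and 3540 in the neurospheres and fell by 7.56 on the log2 scale (SE 0.53, adjusted p = 5.38e-09), and its partner Olig2 read 3.33 and 3.03 in the tumorspheres and 469.5 and 988 in the neurospheres and fell by 5.19 on the log2 scale (SE 0.25, adjusted p = 3.85e-11). Pdgfra, the growth factor receptor of oligodendrocyte progenitors, read 6.83 and 0.724 in the tumorspheres and 1153 and 516 in the neurospheres. Cspg4, the NG2 proteoglycan on the same cells, read 0.483 and 1.04 in the tumorspheres and 122 and 265 in the neurospheres. Nkx2-2, a factor of ventral progenitors and oligodendrocytes, read 0.807 and 0.86 in the tumorspheres and 88.9 and 170.2 in the neurospheres. Bcas1, expressed as oligodendrocytes begin to mature, read 16.5 and 8.17 in the tumorspheres and 1079 and 1209 in the neurospheres and fell by 5.37. Of the myelin genes, Mbp, myelin basic protein, at 45.2 and 32.6 in the tumorspheres and 58.5 and 158 in the neurospheres, and Mag, a myelin glycoprotein, at 1.68 and 8.91 in the tumorspheres and 2.04 and 11.1 in the neurospheres, did not pass the threshold. Cnp, a myelin enzyme, fell, at 182 and 245 in the tumorspheres and 1409 and 515 in the neurospheres (log2 difference -1.94, SE 0.49, adjusted p = 0.00413), with a range from -1.22 without neurosphere 1 to -2.65 without neurosphere 2 and adjusted p = 0.103 without neurosphere 1. Omg, a myelin glycoprotein that neurons also make, read 4.92 and 3.74 in the tumorspheres and 91.5 and 37.2 in the neurospheres and fell by 1.90 on the log2 scale (SE 0.38, adjusted p = 0.00067).

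Factors that mark positions along the neural axis were counted in a brain list and a Hox list. Among forebrain and other brain region factors, 1 of 15 members tested rose and 11 fell, with a median log2 difference of -0.96. Zic1, a zinc finger factor of dorsal neural tissue, read 0.344 and 0.315 in the tumorspheres and 2028 and 1043 in the neurospheres and fell by 6.49 on the log2 scale (SE 0.28, adjusted p = 1.09e-11). Otx2, a factor of forebrain and midbrain, read 3.89 and 6.67 in the tumorspheres and 60.4 and 53.8 in the neurospheres (log2 difference -1.78, SE 0.18, adjusted p = 5.44e-07). Dlx2, a factor of the ventral forebrain, read 2.58 and 7.59 in the tumorspheres and 51.1 and 21.8 in the neurospheres (log2 difference -1.27, SE 0.28, adjusted p = 0.00149). Emx2, a factor of dorsal forebrain, read 204 and 135 in the tumorspheres and 105 and 146 in the neurospheres, and the cultures overlapped. Tbr1, a factor of cortical neurons, was the member that rose, at 58.2 and 34.7 in the tumorspheres and 7.82 and 2.65 in the neurospheres (log2 difference 1.54, SE 0.51, adjusted p = 0.0226; adjusted p = 0.0556 without neurosphere 1, 0.104 without neurosphere 2 and 0.154 without tumorsphere 1). The count of members that fell was 6 without neurosphere 1, 6 without tumorsphere 1, 3 with the beta-actin ratio as a covariate and 5 with only the 4 sphere arrays in the fit.

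The Hox genes, which are expressed from the hindbrain backward and are absent from the forebrain, gave 5 of the 18 members tested that rose and 1 that fell, a count of rises near the 23.5% of all genes, with a median log2 difference of 0.36. Hoxd8 read 138 and 185 in the tumorspheres and 1.45 and 0.484 in the neurospheres (log2 difference 3.38, SE 0.45, adjusted p = 1.1e-05) and Hoxc4 read 176 and 129.9 in the tumorspheres and 1.83 and 0.381 in the neurospheres (log2 difference 3.29, SE 0.52, adjusted p = 6.95e-05). Hoxd9 read 77.7 and 100.3 in the tumorspheres and 3.57 and 1.65 in the neurospheres and Hoxc8 95.2 and 88.6 in the tumorspheres and 5.34 and 2.3 in the neurospheres. All 4 were at most 5.34 in both neurospheres. Hoxa5 was present in both cultures, at 123 and 149 in the tumorspheres and 76.2 and 57.2 in the neurospheres, and its adjusted p of 0.0242 became 0.13 without neurosphere 2, 0.0529 without tumorsphere 1 and 0.142 without tumorsphere 2. With the mean of its probe sets the Hoxa5 difference was 0.22 (adjusted p = 0.554), against 0.88 with the probe set used. Hoxa2, a hindbrain gene, was the member that fell, at 0.816 and 0.866 in the tumorspheres and 16.4 and 12.6 in the neurospheres. It was dim in both cultures, and both neurosphere values lay below the median of their array.

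Neural crest and Schwann cell genes did not follow the sympathetic factors. Of the 19 members tested, 1 rose and 11 fell, with a median log2 difference of -1.50. Ednrb, the endothelin receptor of neural crest and glia, read 22.4 and 58.2 in the tumorspheres and 5955 and 2351 in the neurospheres and fell by 6.14 on the log2 scale (SE 0.41, adjusted p = 2.93e-09). Sox10, a factor of neural crest, Schwann cells and oligodendrocytes, read 3.23 and 3.15 in the tumorspheres and 312 and 133 in the neurospheres and fell by 3.53 on the log2 scale (SE 0.43, adjusted p = 4.23e-06). Ets1 read 18.5 and 22.8 in the tumorspheres and 433 and 474 in the neurospheres and Pou3f1, a factor of Schwann cells and neural progenitors, 6.21 and 3.67 in the tumorspheres and 76.3 and 319 in the neurospheres. Tfap2a, an early neural crest factor, read 9.87 and 7.6 in the tumorspheres and 58.7 and 64.2 in the neurospheres (log2 difference -1.65, SE 0.29, adjusted p = 0.000183). Sox10 and Ednrb are expressed in central as well as peripheral glia. Foxd3, Ngfr and Erbb3 did not pass the threshold, with log2 differences of 0.38, 0.97 and 0.85. The Ngfr difference was 1.74 (adjusted p = 0.00828) without tumorsphere 1 and 0.21 without tumorsphere 2. Pmp22, a membrane protein of Schwann cells that other tissues also express, was the member that rose, at 1035 and 1190 in the tumorspheres and 278 and 576 in the neurospheres, a difference of 1.43 that ranged from 0.93 without neurosphere 1 to 1.94 without neurosphere 2, with adjusted p = 0.0587 without neurosphere 1. No member rose without neurosphere 1, and 2 rose without tumorsphere 1.

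Markers of macrophages and vessels were dim in both cultures. The summed intensity of the 14 macrophage genes tested was 104 and 119 in the tumorspheres and 163 and 107 in the neurospheres, against a mean of 5368 in the hemizygous tumors. Csf1r, C1qa and Cd68, the defining markers, read between 0.424 and 35.8 on the 4 arrays. The 11 endothelial genes summed to 66.6 and 91.2 in the tumorspheres and 111 and 48.9 in the neurospheres, with Pecam1 between 0.584 and 1.75. Of these lists, Fcgr3, an Fc receptor of myeloid cells, rose at 35.6 and 14.5 in the tumorspheres and 0.602 and 0.533 in the neurospheres, and Eng, endoglin, at 18.7 and 22 in the tumorspheres and 3.45 and 4.48 in the neurospheres (adjusted p = 0.0196, and 0.0865 without neurosphere 1, 0.0585 without tumorsphere 1 and 0.105 without tumorsphere 2). None of the 11 skeletal muscle genes passed, with sums of 307 and 286 in the tumorspheres and 70.6 and 58.7 in the neurospheres, while 4 rose with only the 4 sphere arrays in the fit, and the part of muscle in the results was not tested. None of the 3 erythroid genes tested passed. Acta1, skeletal actin, read 43.5 and 66.1 in the tumorspheres and 0.945 and 18.1 in the neurospheres, and Alas2, the heme enzyme of red cells, 2.24 and 0.384 in the tumorspheres and 8.08 and 1.36 in the neurospheres.

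Fibroblast and matrix genes summed to 353 and 721 in the tumorspheres and 2243 and 1728 in the neurospheres over 21 members. Of the 21 members tested, 2 rose and 6 fell. Sparc, a matrix glycoprotein also made by glia, read 1.92 and 1.73 in the tumorspheres and 377 and 408 in the neurospheres and fell by 4.52 on the log2 scale (SE 0.31, adjusted p = 4.99e-09). Cd44, a hyaluronan receptor, read 36.5 and 66.8 in the tumorspheres and 551 and 592 in the neurospheres and fell by 3.15 on the log2 scale (SE 0.43, adjusted p = 1.52e-05). Fn1, fibronectin, read 18.9 and 22.5 in the tumorspheres and 203 and 175 in the neurospheres. Of the fibroblast collagens, Col1a1 and Col3a1 were brighter in neurosphere 1 than in neurosphere 2. Col1a1 read 3.05 and 8.24 in the tumorspheres and 40.6 and 3.49 in the neurospheres (log2 difference -0.63, SE 0.57, adjusted p = 0.424), and its difference was 0.14 without neurosphere 1 and -1.40 without neurosphere 2. Col3a1 read 0.973 and 7.59 in the tumorspheres and 244 and 12.5 in the neurospheres, and its log2 difference of -2.11 (SE 0.62, adjusted p = 0.0119) ranged from -0.51 without neurosphere 1 to -3.70 without neurosphere 2, with adjusted p = 0.402 without neurosphere 1 and 0.0857 without tumorsphere 1. Postn, periostin, and Twist2 were the members that rose, at 106 and 252 in the tumorspheres and 47.6 and 3.89 in the neurospheres and at 31.1 and 112 in the tumorspheres and 19 and 5.2 in the neurospheres. The Postn difference of 2.34 ranged from 1.504 without neurosphere 2 to 3.18 without neurosphere 1. The Twist2 difference of 1.51 ranged from 0.79 without tumorsphere 2 to 2.23 without tumorsphere 1, with adjusted p = 0.0555 without neurosphere 1, 0.211 without neurosphere 2 and 0.411 without tumorsphere 2. Without neurosphere 2, 9 members fell, and 1 member rose without neurosphere 1, neurosphere 2 or tumorsphere 2. The part of fibroblasts in these results was not tested.

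**Figure D2:**
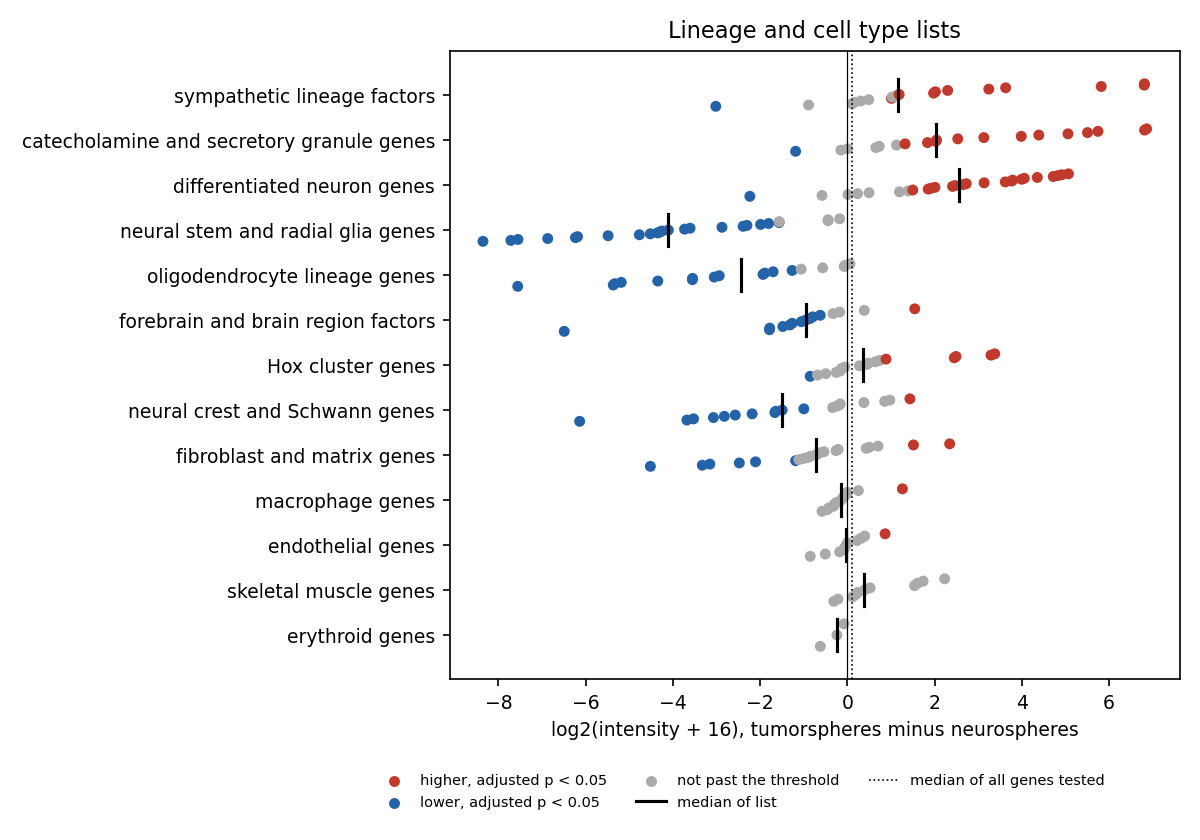
Difference in log2(intensity + 16) between tumorspheres and neurospheres for each tested member of the lineage and cell type lists; red and blue points passed the threshold, gray points did not, black bars are list medians and the dotted line is the median of all genes tested (0.11). The neuron list lies to the right with a median of 2.56 and the neural stem list to the left with -4.11.

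Notch signaling is a contact signal in which Delta and Jagged ligands on a cell activate Notch receptors on its neighbor, whose released fragment joins the factor Rbpj and switches on Hes and Hey repressors. Of the 25 members tested, 4 rose and 13 fell, with a median log2 difference of -1.21. Of the ligands, Jag1 read 14.6 and 20.3 in the tumorspheres and 295 and 1019 in the neurospheres and fell by 4.09 on the log2 scale (SE 0.48, adjusted p = 3.02e-06). Dll1 read 44.8 and 35.1 in the tumorspheres and 494 and 123 in the neurospheres and fell by 2.25 on the log2 scale (SE 0.38, adjusted p = 0.000149), with a difference that ranged from -1.32 without neurosphere 1 to -3.19 without neurosphere 2. Jag2 went the other way, at 119 and 116 in the tumorspheres and 18.6 and 10.5 in the neurospheres (log2 difference 2.14, SE 0.37, adjusted p = 0.00016). Dll3, a ligand that acts within the cell, read 54.8 and 38.7 in the tumorspheres and 76.5 and 79.1 in the neurospheres (log2 difference -0.59, SE 0.32, adjusted p = 0.155). Ligands thus changed in both directions.

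The receptors Notch1 and Notch2 and several targets fell. Notch1 read 14 and 19.7 in the tumorspheres and 331 and 389 in the neurospheres and fell by 3.52 on the log2 scale (SE 0.38, adjusted p = 1.22e-06). Notch2 read 93.5 and 104 in the tumorspheres and 2420 and 484 in the neurospheres and fell by 3.27 on the log2 scale (SE 0.70, adjusted p = 0.00113). Its log2 difference ranged from -2.12 without neurosphere 1 to -4.41 without neurosphere 2 and was -1.34 with the beta-actin ratio as a covariate, with adjusted p = 0.222. Hes5, the main Notch target of neural stem cells, read 12.1 and 15.6 in the tumorspheres and 2401 and 722 in the neurospheres and fell by 5.49 on the log2 scale (SE 0.42, adjusted p = 1.35e-08). Hey1 read 54.5 and 79.2 in the tumorspheres and 519.6 and 499 in the neurospheres and fell by 2.68 on the log2 scale (SE 0.28, adjusted p = 5.98e-07). Hes1 read 12.8 and 4.1 in the tumorspheres and 27.3 and 220.3 in the neurospheres (log2 difference -2.07, SE 0.56, adjusted p = 0.0064), with a difference that ranged from -0.85 without neurosphere 2 to -3.30 without neurosphere 1 and adjusted p = 0.176 without neurosphere 2 and 0.0624 without tumorsphere 2. Hes6, which opposes Hes1 and favors neurons, read 196 and 169 in the tumorspheres and 80.8 and 97.3 in the neurospheres and did not pass the threshold (log2 difference 0.92, SE 0.44, adjusted p = 0.109). Rbpj itself read 585 and 727 in the tumorspheres and 1253 and 602 in the neurospheres, and the cultures overlapped.

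The promoter of Hes5 is shown because this gene fell most among the Notch targets and its window holds the letters GTGGGAA, bound by Rbpj, on both strands. The line gives the 250 bases before the start on the plus strand at chr4:154960673-154960922 (RefSeq, GRCm38.p6), with the motif in capitals, as TTCCCAC where it lies on the opposite strand.
Hes5: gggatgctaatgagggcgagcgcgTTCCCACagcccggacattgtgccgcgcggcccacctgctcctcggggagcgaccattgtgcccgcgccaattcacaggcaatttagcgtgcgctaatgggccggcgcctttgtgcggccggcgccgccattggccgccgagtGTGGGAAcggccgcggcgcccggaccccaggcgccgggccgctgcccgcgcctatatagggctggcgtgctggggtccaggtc

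The sense match began 83 bases and the opposite match 226 bases before the start. Of the 25 list genes, 20 had a promoter in the table, and 3 held the motif on either strand within 250 bases before to 50 after the start, Hes5, Hey2 and Lfng. In the whole table, 7.25% of the genes held it in a promoter. Hey2 read 2.97 and 3.83 in the tumorspheres and 142 and 6.58 in the neurospheres and Lfng, which glycosylates Notch, 1.68 and 0.863 in the tumorspheres and 37 and 51.8 in the neurospheres. Both passed the threshold in the lower direction, Hey2 with a difference that ranged from -0.22 without neurosphere 1 to -3.02 without neurosphere 2 and adjusted p = 0.735 without neurosphere 1, 0.102 without tumorsphere 1 and 0.0895 without tumorsphere 2.

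Dlk1, a membrane protein of the Delta family without the usual Notch-binding domain, was the member with the largest rise, at 1396 and 1256 in the tumorspheres and 26.1 and 7.25 in the neurospheres (log2 difference 5.42, SE 0.39, adjusted p = 6.06e-09). Mfng, another glycosylating enzyme, and Dtx1, a ubiquitin ligase of the pathway, were the remaining members that rose, at 81.4 and 125 in the tumorspheres and 50.04 and 2.74 in the neurospheres and at 451 and 373 in the tumorspheres and 61.5 and 139.5 in the neurospheres. The Mfng difference of 1.74 ranged from 0.83 without neurosphere 2 to 2.65 without neurosphere 1, with adjusted p = 0.109 without neurosphere 2 and 0.0528 without tumorsphere 2.

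EGF and FGF receptors activate ERK, which induces Etv factors and the feedback inhibitors of the Sprouty and Dusp families. Of the 28 members tested, 1 rose and 14 fell, with a median log2 difference of -0.92. Egfr, the EGF receptor, read 0.51 and 4.72 in the tumorspheres and 1095 and 1008 in the neurospheres and fell by 5.85 on the log2 scale (SE 0.24, adjusted p = 4.8e-12). Fgfr3 read 20.02 and 14.2 in the tumorspheres and 1655 and 586 in the neurospheres and fell by 4.92 on the log2 scale (SE 0.34, adjusted p = 3.94e-09). Fgfr2 read 19.7 and 23 in the tumorspheres and 1101 and 256 in the neurospheres and fell by 3.88 on the log2 scale (SE 0.41, adjusted p = 7.21e-07). Fgfr1 was low in both cultures and overlapped, at 54.9 and 61 in the tumorspheres and 30.4 and 104 in the neurospheres (log2 difference -0.02, SE 0.36, adjusted p = 0.981).

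Feedback genes and targets were lower as well, but the neurospheres differed in level. Spry2 read 95.7 and 123 in the tumorspheres and 575 and 925 in the neurospheres and fell by 2.58 on the log2 scale (SE 0.32, adjusted p = 5.33e-06). Etv4 read 5.85 and 1.27 in the tumorspheres and 42.9 and 60.7 in the neurospheres and fell by 1.79 on the log2 scale (SE 0.22, adjusted p = 4.09e-06). Dusp6, the phosphatase of ERK, read 56.8 and 161 in the tumorspheres and 306 and 2287 in the neurospheres, and its log2 difference of -2.92 (SE 0.75, adjusted p = 0.00474) ranged from -1.51 without neurosphere 2 to -4.34 without neurosphere 1, with adjusted p = 0.122 without neurosphere 2 and 0.072 without tumorsphere 1. Etv5 read 78.4 and 136 in the tumorspheres and 264 and 1259 in the neurospheres, and its difference of -2.32 (SE 0.49, adjusted p = 0.00108) ranged from -1.23 without neurosphere 2 to -3.41 without neurosphere 1. Neurosphere 2 was the brighter of the pair for all 4 genes. Spry4 read 9.88 and 42.2 in the tumorspheres and 46.2 and 173 in the neurospheres (log2 difference -1.48, SE 0.43, adjusted p = 0.01). Its difference ranged from -0.68 without neurosphere 2 to -2.29 without neurosphere 1. With the mean of its probe sets the Spry4 difference was -0.38 and did not pass the threshold (adjusted p = 0.144). Dusp4 was the member that rose, at 249.7 and 330.5 in the tumorspheres and 26.4 and 186 in the neurospheres (log2 difference 1.71, SE 0.61, adjusted p = 0.0331), with a difference that ranged from 0.58 without neurosphere 1 to 2.84 without neurosphere 2 and adjusted p = 0.541 without neurosphere 1, 0.0749 without tumorsphere 1 and 0.157 without tumorsphere 2. Without neurosphere 2, 3 members rose, and none rose without any of the other 3 sphere arrays.

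Cyclin D1, a target of this pathway, depended on the probe set. The probe set used for Ccnd1 read 767 and 751 in the tumorspheres and 422 and 1926 in the neurospheres (log2 difference -0.25, SE 0.44, adjusted p = 0.703), and 2 other probe sets differed by 1.20 and 1.55 in the opposite direction. The Ccnd1 difference was 0.82 without neurosphere 2, with adjusted p = 0.0467, and -1.33 without neurosphere 1, with adjusted p = 0.00416. Ccnd2, cyclin D2, was among the 12 largest falls of the genes ranked, at 7.53 and 7.38 in the tumorspheres and 1568 and 3215 in the neurospheres, and fell by 6.59 on the log2 scale (SE 0.46, adjusted p = 5.38e-09).

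Wnt signaling acts through Frizzled receptors and the partners of beta-catenin. Of the 26 members tested, 2 rose and 12 fell, with a median log2 difference of -0.67. The ligand Wnt5a read 7.05 and 6.56 in the tumorspheres and 172 and 102 in the neurospheres and fell by 2.71 on the log2 scale (SE 0.26, adjusted p = 2.51e-07). The receptor Fzd1 read 12.9 and 11.2 in the tumorspheres and 149.7 and 771 in the neurospheres and fell by 3.69 on the log2 scale (SE 0.46, adjusted p = 5.81e-06), while Fzd3 was bright in both cultures and overlapped, at 494 and 711 in the tumorspheres and 1041 and 599 in the neurospheres (log2 difference -0.41, SE 0.28, adjusted p = 0.285). The beta-catenin partners moved apart, since Tcf7l1 and Tcf7l2 fell, at 33.9 and 34 in the tumorspheres and 474 and 149 in the neurospheres and at 43.2 and 42 in the tumorspheres and 359 and 228 in the neurospheres, and Lef1 rose, at 71 and 96.5 in the tumorspheres and 16.5 and 9.66 in the neurospheres (log2 difference 1.77, SE 0.46, adjusted p = 0.00501). Axin2, a feedback target, read 72.7 and 65.3 in the tumorspheres and 138 and 178 in the neurospheres (log2 difference -1.02, SE 0.26, adjusted p = 0.00466). Lgr5, a receptor of R-spondins, was the other member that rose, at 93.9 and 100.4 in the tumorspheres and 23.6 and 43.5 in the neurospheres, with adjusted p = 0.0536 without neurosphere 1. Sfrp1, a secreted inhibitor, read 23.7 and 16.3 in the tumorspheres and 71.8 and 28.7 in the neurospheres (log2 difference -0.81, SE 0.31, adjusted p = 0.0489), with a difference that ranged from -0.32 without neurosphere 1 to -1.29 without neurosphere 2 and adjusted p = 0.538 without neurosphere 1, 0.0791 without tumorsphere 1 and 0.236 without tumorsphere 2. Dkk3 read 9.11 and 14.5 in the tumorspheres and 128 and 9.63 in the neurospheres and did not pass (log2 difference -1.14, SE 0.56, adjusted p = 0.12), but its difference was -2.38 (adjusted p = 0.000827) without neurosphere 2 and 0.11 without neurosphere 1. With the beta-actin ratio as a covariate, 7 members fell and 1 rose, and with only the 4 sphere arrays in the fit 8 fell.

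Hedgehog signaling, which passes from the receptor Ptch1 to Smo and the Gli factors, had no member that rose and 6 of 11 that fell, with a median log2 difference of -1.58. Gas1, a co-receptor, read 3.44 and 1.34 in the tumorspheres and 807 and 1276 in the neurospheres and fell by 5.81 on the log2 scale (SE 0.40, adjusted p = 3.94e-09). Gli3 read 2.65 and 0.582 in the tumorspheres and 138 and 94.6 in the neurospheres and fell by 2.89 on the log2 scale (SE 0.23, adjusted p = 2.27e-08). Gli2 read 22.2 and 41.8 in the tumorspheres and 120.3 and 149 in the neurospheres (log2 difference -1.68, SE 0.41, adjusted p = 0.00321). Smo read 63.4 and 52 in the tumorspheres and 178 and 233 in the neurospheres (log2 difference -1.58, SE 0.36, adjusted p = 0.00208). Ptch1, also a target of the pathway, read 393 and 281 in the tumorspheres and 2531 and 979.8 in the neurospheres and fell by 2.19 on the log2 scale (SE 0.32, adjusted p = 3.39e-05). Gli1, the target most used as a readout, was dim on all 4 arrays, at 6.32 and 6.67 in the tumorspheres and 13.5 and 3.35 in the neurospheres, and overlapped.

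In the BMP and TGF-beta pathway 4 of the 29 members tested rose and 13 fell, with a median log2 difference of -0.59. Of the ligands, Tgfb2 read 19.2 and 24.8 in the tumorspheres and 182 and 301 in the neurospheres and fell by 2.72 on the log2 scale (SE 0.35, adjusted p = 7.82e-06), Inhbb, an activin subunit, read 3.29 and 4.43 in the tumorspheres and 428 and 169 in the neurospheres and fell by 3.85 on the log2 scale (SE 0.37, adjusted p = 2.53e-07), and Tgfb3 rose, at 114 and 105 in the tumorspheres and 6.22 and 11 in the neurospheres (log2 difference 2.36, SE 0.25, adjusted p = 7.54e-07). Bmp7 overlapped, at 61.5 and 93.7 in the tumorspheres and 64.3 and 119 in the neurospheres. The receptor Bmpr1b read 95.2 and 101 in the tumorspheres and 843 and 476 in the neurospheres and fell by 2.51 on the log2 scale (SE 0.56, adjusted p = 0.00168). Tgfbr2 read 14.1 and 20.3 in the tumorspheres and 52.7 and 181 in the neurospheres (log2 difference -1.81, SE 0.59, adjusted p = 0.0212), with a difference that ranged from -1.05 without neurosphere 2 to -2.57 without neurosphere 1 and adjusted p = 0.24 without neurosphere 2, 0.108 without tumorsphere 1 and 0.0625 without tumorsphere 2. Tgfbr3, betaglycan, rose, at 169.9 and 188 in the tumorspheres and 41.9 and 23.4 in the neurospheres. The remaining members that rose, Bmp6 and Grem1, were dim, at 10.3 and 38 in the tumorspheres and 3.97 and 0.381 in the neurospheres and at 34.4 and 16.7 in the tumorspheres and 14.6 and 2.72 in the neurospheres. Their differences ranged from 0.54 without tumorsphere 2 to 1.58 without tumorsphere 1 and from 0.41 without neurosphere 2 to 1.12 without neurosphere 1, with adjusted p = 0.0944 without neurosphere 2 and 0.311 without tumorsphere 2 for Bmp6 and 0.337 without neurosphere 2 and 0.355 without tumorsphere 1 for Grem1.

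The Id genes, direct targets of BMP signaling that block helix-loop-helix factors, did not move as a group. Id4, which is active in neural progenitors, read 0.208 and 5.38 in the tumorspheres and 1851 and 132 in the neurospheres and fell by 4.82 on the log2 scale (SE 0.73, adjusted p = 4.73e-05), with a difference that ranged from -2.99 without neurosphere 1 to -6.65 without neurosphere 2. Id1, Id2 and Id3 did not pass the threshold, with log2 differences of 0.31, 0.18 and -0.59. Id2 overlapped between the cultures, at 596 and 940.2 in the tumorspheres and 932 and 468 in the neurospheres. The number of BMP and TGF-beta members that fell was 7 without neurosphere 1, 8 without tumorsphere 1, 7 without tumorsphere 2 and 6 with the beta-actin ratio as a covariate, and the number that rose was 2 without neurosphere 2.

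Receptors for trophic factors and their ligands moved in both directions. Of the 31 members tested, 7 rose and 15 fell, with a median log2 difference of -0.62. The count of rises was near the 23.5% of all genes, while 14.9% of all genes fell. Ret, the signaling receptor for factors of the GDNF family, read 444 and 1017 in the tumorspheres and 1 and 0.856 in the neurospheres (log2 difference 5.35, SE 0.53, adjusted p = 3.84e-07). Gfra3, the co-receptor for artemin, read 171 and 881 in the tumorspheres and 14.1 and 12 in the neurospheres (log2 difference 3.82, SE 0.79, adjusted p = 0.000872). Both were at most 14.1 in the neurospheres, and both differed between the tumorspheres, with tumorsphere 2 brighter. Gfra1, the co-receptor for GDNF, fell instead, at 6.27 and 7.5 in the tumorspheres and 84.8 and 52.6 in the neurospheres (log2 difference -1.86, SE 0.29, adjusted p = 6.85e-05). Alk, a receptor kinase that is mutated in a share of neuroblastomas, read 418 and 342 in the tumorspheres and 1.06 and 9.49 in the neurospheres (log2 difference 4.24, SE 0.33, adjusted p = 1.75e-08). Ntrk2, the receptor of BDNF, read 42.4 and 54.7 in the tumorspheres and 1666 and 1120 in the neurospheres and fell by 4.43 on the log2 scale (SE 0.25, adjusted p = 4.57e-10). Ntrk3, the receptor of neurotrophin 3, read 30.4 and 7.41 in the tumorspheres and 123 and 145 in the neurospheres and fell by 2.19 on the log2 scale (SE 0.47, adjusted p = 0.00113). Kit overlapped, at 78.4 and 48.7 in the tumorspheres and 76 and 37.9 in the neurospheres, while Kitl, its ligand, read 1.67 and 4 in the tumorspheres and 984 and 706 in the neurospheres and fell by 5.50.

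Midkine and pleiotrophin are related heparin-binding growth factors, and they were opposed in the spheres. Mdk, midkine, read 336 and 464 in the tumorspheres and 53.6 and 33 in the neurospheres (log2 difference 2.82, SE 0.33, adjusted p = 2.84e-06). Ptn, pleiotrophin, read 115 and 35.2 in the tumorspheres and 4233 and 3730 in the neurospheres and fell by 5.61 on the log2 scale (SE 0.53, adjusted p = 2.22e-07). Of the receptors reported for these factors, Ptprz1 and Notch2 fell and Alk rose, as given above. Sdc1 and Sdc4 are heparan sulfate carriers of the cell surface, and they were opposed too. Sdc1 read 321 and 437 in the tumorspheres and 45.3 and 37.8 in the neurospheres and rose by 2.77 on the log2 scale (SE 0.41, adjusted p = 4.18e-05). Sdc4 read 4.84 and 2.65 in the tumorspheres and 561 and 459 in the neurospheres and fell by 4.73 on the log2 scale (SE 0.46, adjusted p = 3.01e-07). Of the same family, Sdc2 fell (log2 difference -1.57, adjusted p = 0.0017) and Sdc3 did not pass the threshold (0.16, adjusted p = 0.761). Lrp1, also of this list, did not pass either (log2 difference -0.62, adjusted p = 0.319). Igf2 read 212 and 304 in the tumorspheres and 35 and 18.8 in the neurospheres (log2 difference 2.68, SE 0.76, adjusted p = 0.00899; adjusted p = 0.0558 without neurosphere 2 and 0.0674 without tumorsphere 2). Its receptor Igf1r read 185 and 41.8 in the tumorspheres and 278 and 275 in the neurospheres (log2 difference -1.44, SE 0.38, adjusted p = 0.00588), with a range from -0.54 without tumorsphere 2 to -2.34 without tumorsphere 1 and adjusted p = 0.205 without tumorsphere 2.

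**Figure D3:**
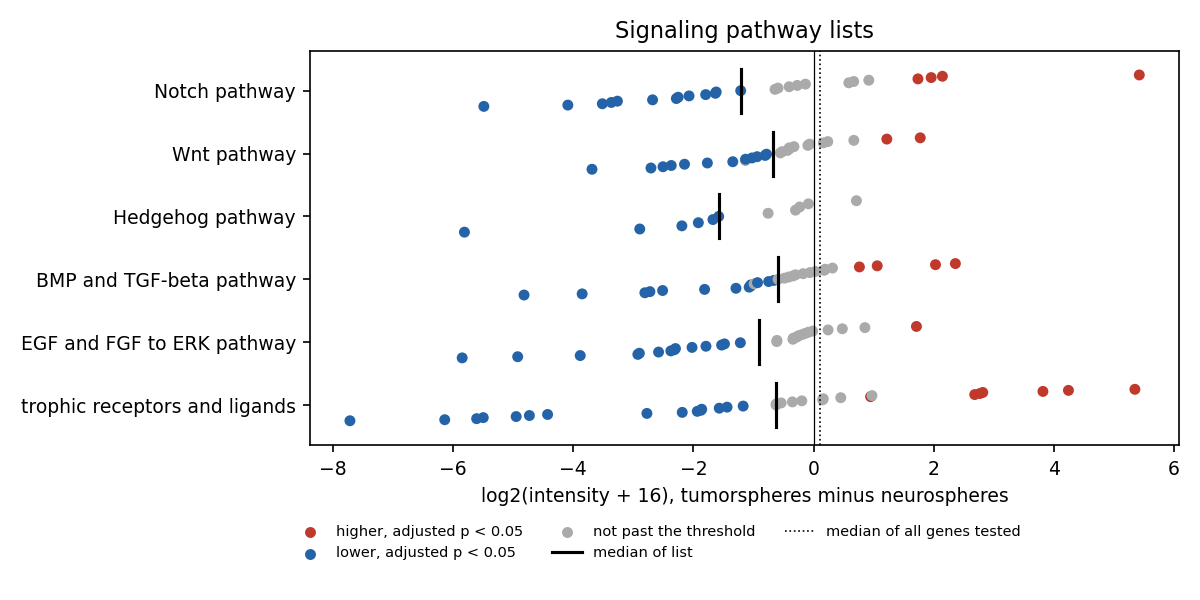
Difference in log2(intensity + 16) between tumorspheres and neurospheres for each tested member of the signaling lists, with colors and lines as in the plot of lineage lists. The list medians run from -1.58 for Hedgehog to -0.59 for BMP and TGF-beta, and single members such as Dlk1 (5.42) and Ret (5.35) lie far to the right.

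Within the Myc network, members moved in both directions, with 3 of 11 rising and 3 falling, against 23.5% and 14.9% of all genes. Myc read 11.7 and 11.3 in the tumorspheres and 42.3 and 210.3 in the neurospheres and fell by 2.06 on the log2 scale (SE 0.45, adjusted p = 0.00146), with a difference that ranged from -1.09 without neurosphere 2 to -3.04 without neurosphere 1. Mycl read 24.9 and 9.19 in the tumorspheres and 242 and 63.5 in the neurospheres and fell by 2.16 on the log2 scale (SE 0.47, adjusted p = 0.0013), with a range from -1.31 without neurosphere 1 to -3.005 without neurosphere 2. Mxd3, a Max partner found in proliferating cells, read 165 and 132 in the tumorspheres and 22.1 and 35.4 in the neurospheres and rose by 1.89 on the log2 scale (SE 0.37, adjusted p = 0.000579), and Max overlapped, at 30.8 and 20.1 in the tumorspheres and 27.4 and 29.3 in the neurospheres. Mxi1 and Mnt, which compete with Myc for Max, also rose, at 668 and 602 in the tumorspheres and 408 and 272 in the neurospheres and at 212 and 192 in the tumorspheres and 107 and 63.2 in the neurospheres. The adjusted p was 0.146 without neurosphere 2 and 0.093 without tumorsphere 1 for Mxi1 and 0.08 without neurosphere 2 for Mnt. The third member that fell was Mga, at 143 and 220.0 in the tumorspheres and 324 and 342 in the neurospheres, with a difference that ranged from -0.56 without tumorsphere 1 to -1.14 without tumorsphere 2 and adjusted p = 0.101 without neurosphere 1, 0.11 without neurosphere 2 and 0.294 without tumorsphere 1. Without neurosphere 2, 1 member rose, and 1 member fell with only the 4 sphere arrays in the fit.

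Genes of ribosome biogenesis, a process that Myc proteins promote, were higher in the tumorspheres, and neurosphere 1 was lower than neurosphere 2. Of the 28 members tested, 15 rose and 1 fell, with a median log2 difference of 1.09. The mean of log2(intensity + 16) over the list was 8.94 and 8.87 in the tumorspheres, 7.36 in neurosphere 1 and 8.44 in neurosphere 2. Ncl, nucleolin, read 2000 and 1719 in the tumorspheres and 202 and 631 in the neurospheres (log2 difference 2.31, SE 0.70, adjusted p = 0.0133), with a range from 1.53 without neurosphere 1 to 3.10 without neurosphere 2 and adjusted p = 0.186 without neurosphere 1 and 0.0719 without tumorsphere 1. Fbl, fibrillarin, read 1711 and 1351 in the tumorspheres and 264 and 899 in the neurospheres (log2 difference 1.60, SE 0.50, adjusted p = 0.0155), with a range from 0.75 without neurosphere 1 to 2.46 without neurosphere 2 and adjusted p = 0.314 without neurosphere 1 and 0.0988 without tumorsphere 1. Nop56 read 1143 and 941 in the tumorspheres and 233 and 710.5 in the neurospheres (log2 difference 1.31, SE 0.36, adjusted p = 0.0071), with a range from 0.54 without neurosphere 1 to 2.08 without neurosphere 2 and adjusted p = 0.216 without neurosphere 1 and 0.0609 without tumorsphere 1. Odc1, the polyamine enzyme and a classical Myc target, was the member that fell, at 1409 and 1327 in the tumorspheres and 2728 and 2264 in the neurospheres (log2 difference -0.85, SE 0.32, adjusted p = 0.0438; adjusted p = 0.203 without neurosphere 1, 0.06 without neurosphere 2, 0.115 without tumorsphere 1 and 0.156 without tumorsphere 2). Rrp9, a component of the small-subunit processome, differed most, at 202 and 179.5 in the tumorspheres and 4.68 and 13 in the neurospheres (log2 difference 3.07, SE 0.33, adjusted p = 1e-06). The count of members that rose was 5 without neurosphere 1, 21 without neurosphere 2, 3 with the beta-actin ratio as a covariate and 23 with the GAPDH ratio. Of 23 list genes with a promoter in the table, 6 held the E-box CACGTG, a palindrome that Myc and Max bind, and so did 8.09% of all genes there. Nop2, Utp20 and Mybbp1a of these rose, and Pes1, Tsr1 and Wdr43 did not pass the threshold. The Utp20 difference was 1.04, and 0.66 (adjusted p = 0.305) with the beta-actin ratio as a covariate. For Mybbp1a these values were 1.59 and 0.81 (adjusted p = 0.303). Without neurosphere 1 the differences were 0.78 for Utp20 and 1.01 for Mybbp1a. No binding was measured.

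Cell cycle genes were also higher in the tumorspheres. 17 of the 29 members tested rose and none fell, with a median log2 difference of 1.24. Their mean log2 level was 9.39 and 9.49 in the tumorspheres and 7.93 and 8.38 in the neurospheres. Ccne1, the cyclin of the entry into S phase, read 956 and 1151 in the tumorspheres and 178 and 192 in the neurospheres (log2 difference 2.41, SE 0.25, adjusted p = 6.39e-07). Birc5, survivin, read 806 and 851 in the tumorspheres and 47.3 and 87.3 in the neurospheres (log2 difference 3.38, SE 0.31, adjusted p = 1.34e-07). Mcm2, of the replication helicase, read 1168 and 1402 in the tumorspheres and 217 and 512 in the neurospheres (log2 difference 1.89, SE 0.44, adjusted p = 0.00219; adjusted p = 0.0589 without neurosphere 1). Top2a, the topoisomerase of dividing cells, read 2047 and 1537 in the tumorspheres and 602 and 798 in the neurospheres (log2 difference 1.33, SE 0.35, adjusted p = 0.00533; adjusted p = 0.0582 without neurosphere 1 and 0.0613 without tumorsphere 1). Mki67, the proliferation antigen, was bright in both cultures and overlapped, at 2030 and 1854 in the tumorspheres and 2836 and 1969 in the neurospheres. The count that rose was 9 without neurosphere 1 and 9 with the beta-actin ratio as a covariate.

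Genes induced by low oxygen were mostly higher in the neurospheres. Of the 14 members tested, 1 rose and 9 fell, with a median log2 difference of -1.61. Adm, adrenomedullin, read 17.6 and 26.5 in the tumorspheres and 4893 and 1330 in the neurospheres and fell by 6.09 on the log2 scale (SE 1.02, adjusted p = 0.000133). Pfkfb3, a regulator of glycolysis, read 78.4 and 47.3 in the tumorspheres and 257 and 727 in the neurospheres and fell by 2.54 on the log2 scale (SE 0.41, adjusted p = 8.76e-05). Egln3, an oxygen sensor, read 1.08 and 6.76 in the tumorspheres and 136 and 141 in the neurospheres and fell by 2.97 on the log2 scale (SE 0.70, adjusted p = 0.00255). Slc2a1, the glucose transporter, read 148 and 166 in the tumorspheres and 665 and 279 in the neurospheres (log2 difference -1.38, SE 0.35, adjusted p = 0.00464), with a range from -0.78 without neurosphere 1 to -1.98 without neurosphere 2 and adjusted p = 0.126 without neurosphere 1. Vegfa overlapped, at 176 and 168 in the tumorspheres and 216 and 153 in the neurospheres, and Ndrg1 was the member that rose, at 584 and 669 in the tumorspheres and 385 and 177 in the neurospheres (log2 difference 1.20, SE 0.40, adjusted p = 0.0222), with a range from 0.68 without neurosphere 2 to 1.73 without neurosphere 1 and adjusted p = 0.252 without neurosphere 2, 0.063 without tumorsphere 1 and 0.113 without tumorsphere 2. The count of members that fell was 6 without neurosphere 1 and 5 with the beta-actin ratio as a covariate.

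**Figure D4:**
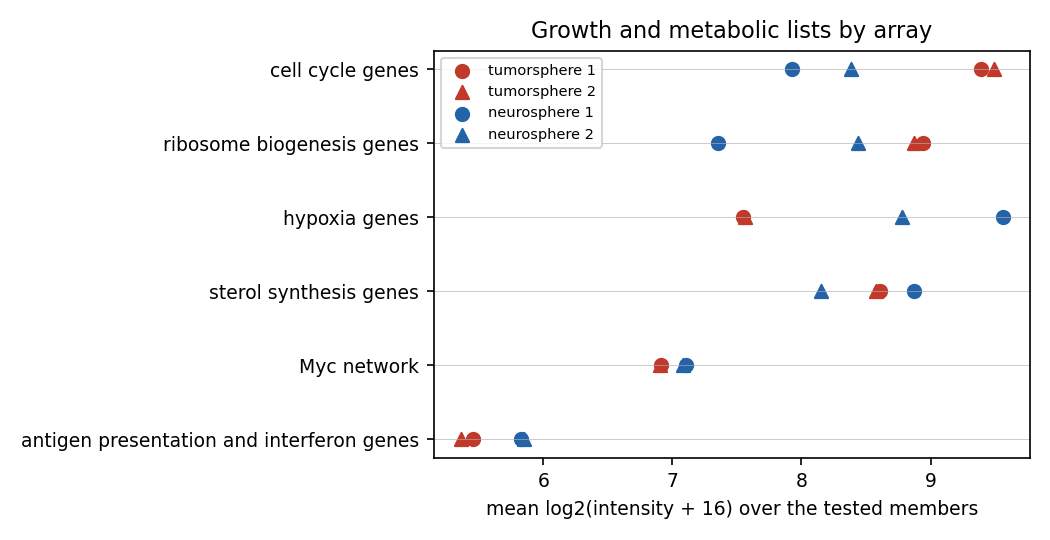
Mean log2(intensity + 16) over the tested members of 6 lists on each of the 4 sphere arrays, with tumorspheres in red and neurospheres in blue. The tumorspheres nearly coincide in each list, and the neurospheres differ most for ribosome biogenesis, at 7.36 and 8.44.

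Genes of fetal growth were mixed. Dlk1, given above, Igf2 and the noncoding Meg3, which are imprinted, rose, Meg3 at 3337 and 2871 in the tumorspheres and 333 and 87.8 in the neurospheres (log2 difference 4.03, SE 0.48, adjusted p = 2.98e-06). Lin28b, which blocks the let-7 microRNAs, read 23.7 and 22.5 in the tumorspheres and 0.59 and 0.219 in the neurospheres (log2 difference 1.25, SE 0.22, adjusted p = 0.000202). Hmga2, a chromatin protein repressed by let-7, fell, at 19.3 and 10.8 in the tumorspheres and 79.8 and 192 in the neurospheres (log2 difference -2.20, SE 0.30, adjusted p = 1.7e-05), and the RNA-binding protein Igf2bp3 read 21.8 and 20.5 in the tumorspheres and 1594 and 1396 in the neurospheres and fell by 5.34 on the log2 scale (SE 0.50, adjusted p = 1.77e-07). Igf2bp1 overlapped, at 20.4 and 80.8 in the tumorspheres and 34.4 and 12.8 in the neurospheres.

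Of the 16 antigen presentation and interferon genes tested, 2 rose and 5 fell, a total near the 38.4% of all genes. B2m, beta-2 microglobulin, which pairs with class I heavy chains, read 336 and 221 in the tumorspheres and 1159 and 1047 in the neurospheres and fell by 1.95 on the log2 scale (SE 0.30, adjusted p = 6.14e-05), while the heavy chain gene H2-D1 rose, at 395 and 235 in the tumorspheres and 66.5 and 109.6 in the neurospheres (log2 difference 1.66, SE 0.44, adjusted p = 0.00572; adjusted p = 0.0712 without neurosphere 1 and 0.0798 without tumorsphere 1). Ifitm3, an interferon-induced membrane protein, read 4.66 and 3.6 in the tumorspheres and 278 and 467 in the neurospheres and fell by 4.23 on the log2 scale (SE 0.43, adjusted p = 5.31e-07). Tap1, the peptide transporter, was dim and overlapped, at 5.96 and 9.43 in the tumorspheres and 7.95 and 13.2 in the neurospheres. Of this list 2 fell without neurosphere 1 or without tumorsphere 2, and none rose without tumorsphere 1.

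Of 15 sterol synthesis genes tested, 2 rose and 3 fell, against 23.5% and 14.9% of all genes, so the list did not stand out by its counts. Fdps, farnesyl diphosphate synthase, rose, at 365 and 379.7 in the tumorspheres and 103 and 45.6 in the neurospheres (log2 difference 2.18, SE 0.41, adjusted p = 0.000353), and Insig1, the sterol sensor, fell, at 94.9 and 105 in the tumorspheres and 1027 and 276 in the neurospheres (log2 difference -2.25, SE 0.78, adjusted p = 0.0295), with a range from -1.33 without neurosphere 1 to -3.17 without neurosphere 2 and adjusted p = 0.317 without neurosphere 1, 0.113 without tumorsphere 1 and 0.0945 without tumorsphere 2. Sqle, squalene epoxidase, overlapped, at 1560 and 1527 in the tumorspheres and 1623 and 776 in the neurospheres, with a log2 difference of 0.98 (adjusted p = 0.00273) without neurosphere 1 and -0.07 without neurosphere 2. None of the list fell without neurosphere 1 or without either tumorsphere, 5 fell without neurosphere 2, and 4 rose without neurosphere 1.

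The remaining genes among the 12 with the largest rise and the 12 with the largest fall came from no list. Slc38a4, an amino acid transporter, read 1078 and 959 in the tumorspheres and 5.43 and 2.42 in the neurospheres (log2 difference 5.70, SE 0.26, adjusted p = 2.03e-11), and Slc7a14, of the cationic amino acid transporter family, 1304 and 1575 in the tumorspheres and 21.8 and 10.7 in the neurospheres (log2 difference 5.51, SE 0.50, adjusted p = 1.38e-07). Gja1, connexin 43, the gap junction protein of astrocytes and radial glia, read 2.67 and 0.27 in the tumorspheres and 4095 and 1503 in the neurospheres and fell by 7.16 on the log2 scale (SE 0.49, adjusted p = 3.94e-09). Rgs20, a regulator of G protein signaling, read 0.5 and 0.559 in the tumorspheres and 4484 and 1355 in the neurospheres and fell by 7.23 on the log2 scale (SE 0.83, adjusted p = 2.15e-06). Zfp36l1, an RNA-binding protein that destabilizes messengers, read 0.713 and 4.75 in the tumorspheres and 3363 and 1119 in the neurospheres and fell by 6.72. Jam2, a junctional adhesion molecule, read 0.674 and 5.91 in the tumorspheres and 1687 and 1593 in the neurospheres, and Lrrn1, a leucine-rich repeat membrane protein, 3.68 and 9.25 in the tumorspheres and 3284 and 1053 in the neurospheres. The highest reading in the culture where they were low was 9.25, except for Slc7a14 in the neurospheres.

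Whether the sphere difference matches that between tissues of the same genotypes was tested by the difference between (tumorspheres minus neurospheres) and (hemizygous tumors minus wild-type ganglia), with 4 arrays in each tissue group and no array in more than 1 group. The tissue and the sphere difference were unequal for 4926 of the 15139 genes (32.5%), 2700 with the sphere difference above the tissue difference (17.8%) and 2226 below (14.7%). Of the 19 catecholamine and granule genes, 18 were above and none below, and of the 26 neuron genes 23 were above and none below. Of the 25 neural stem genes, none was above and 18 were below. Of the 29 cell cycle genes, 1 was above and 22 were below. The median tissue differences of these lists, in the same order, were -2.64, -1.20, -0.57 and 3.73. The median sphere differences were 2.04, 2.56, -4.11 and 1.24. The cell cycle median was thus above 0 in both comparisons and larger in the tissues.

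Single genes show the pattern. Th was at 1472, 2470 and 3193 (lowest, median and highest) in the ganglia and at 170.9, 465.4 and 1770 in the tumors, so its tissue difference was -2.25 and its sphere difference 6.86, with a gap of 9.11 (SE 0.83, adjusted p = 2.21e-07). Ret had a gap of 9.05 (SE 0.65, adjusted p = 1.1e-08), with medians of 60.7 in tumors and 960.8 in ganglia. Hand2 had a median of 2090 in ganglia and 1231 in tumors, a tissue difference of -0.66, while its sphere difference was 5.82. Isl1 had a median of 2059 in ganglia and 1960 in tumors, a tissue difference of -0.10, and a sphere difference of 6.81. Hand2 and Isl1 were bright in all tumors, ganglia and tumorspheres and dim in the neurospheres alone among these 4 groups. Slc6a2 was at a median of 5979 in ganglia, 49.97 in tumors, and 15.7 and 27.4 in tumorspheres. Dbh, likewise, was at 2348 and 154.9 in the tissues, with the tumorspheres at 54 and 79.7.

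Other genes had a sphere difference below the tissue difference. Vcam1, an adhesion molecule, was at medians of 824 in tumors and 139.8 in ganglia, but 0.828 and 0.298 in the tumorspheres and 860.3 and 388 in the neurospheres, a gap of -7.34 (SE 0.50, adjusted p = 5.34e-09). Igfbp3, which binds insulin-like growth factors, was at 265.2 in tumors and 52.5 in ganglia and read 9.17 and 0.908 in the tumorspheres and 213 and 1761 in the neurospheres, a gap of -7.01 (SE 0.80, adjusted p = 2.81e-06). Pla2g7, a secreted phospholipase, was at 68.8 and 16.1 in the tissues and read 1.17 and 0.703 in the tumorspheres and 1068 and 468 in the neurospheres, a gap of -6.97. Slc1a3 read at most 18.7 in the tumors and ganglia, with a tissue difference of 0.18, and its gap was -7.05. Insm1 was higher in both comparisons, with a tissue difference of 5.63 and a sphere difference of 1.97. Its gap was -3.65 (SE 0.35, adjusted p = 3.93e-07), and it read at most 9.73 in the ganglia and at least 862 in the tumors. The highest intensity was above 10000 on wild-type ganglia 3 and 4 and below it on 1 and 2, and the number of unequal genes was 6545 with the first pair alone and 5552 with the second pair alone.

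**Figure D5:**
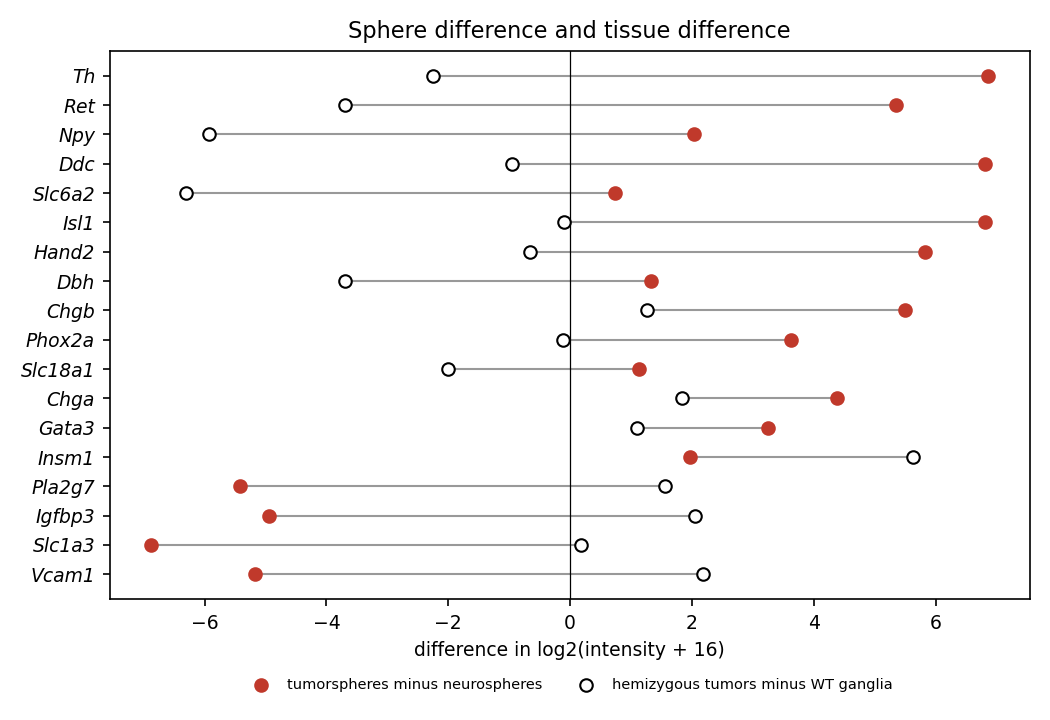
Difference in log2(intensity + 16) between tumorspheres and neurospheres (red) and between hemizygous tumors and wild-type ganglia (open circles) for 18 genes, ordered by the gap between the 2. Th and Ret have the widest positive gaps (9.11 and 9.05) and Vcam1 the widest negative one (-7.34).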

How the data were processed

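The 20 arrays were taken from the authors' deposited table of probe set intensities, a linear intensity scaled so that the mean after trimming 2% at each end was 100 on every array; the sources used here name no summarization software. Per the labels' protocols, frozen tissue was homogenized with Isogen. Genes were named from 34945 of 45037 probe sets with 1 symbol in the platform annotation (932 had several and 9160 none), updated through RefSeq (GRCm38.p6). Intensities became log2(intensity + 16) without further normalization, since array medians spanned 0.33. Genes above the 40th percentile of their array on at least 2 arrays were tested with limma 3.58.1 in R 4.3.3, 7 group means, two-sided, 13 residual degrees of freedom per gene, Benjamini-Hochberg. The number of arrays limits the precision.

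Genes were named by rule: the 12 highest and 12 lowest, anchor genes of 26 lists, the 4 largest called members of each list, and the 4 highest and lowest gaps to the tissue difference. The 12 highest and lowest and the gaps were ranked without clone names, predicted genes and sex-linked genes. The 12 highest and lowest also had to pass the threshold without overlap between the cultures. Some members outside the rule are also given, where a count was small or beside named members (Gal, Vip, Cnp, Omg), chosen after their values were seen. Members and lists were chosen with earlier results of these data known. Alternatives were another normalization, pseudocount, filter, probe set rule, variance model, control ratio covariate and arrays left out. The steps were tested on simulated data. Replicate numbers are names only.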

Additional observations from a re-analysis of the deposited data

Results flagged for a closer look

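The sphere difference of each of the 18 genes set against the tissue difference was unequal to it in limma's test. The gap, sphere difference minus tissue difference on the log2 scale, was above 0 for 13 genes: 9.11 for Th, 9.05 for Ret, 7.97 for Npy, 7.77 for Ddc, 7.03 for Slc6a2, 6.91 for Isl1, 6.48 for Hand2, 5.02 for Dbh, 4.25 for Chgb, 3.75 for Phox2a, 3.13 for Slc18a1, 2.56 for Chga and 2.15 for Gata3. It was below 0 for 5 genes: -3.65 for Insm1, -6.97 for Pla2g7, -7.01 for Igfbp3, -7.05 for Slc1a3 and -7.34 for Vcam1. The 4 highest and 4 lowest gaps chose 8 of the 18 genes, whose values are a description. The gap of Gata3 had an adjusted p of 0.00315 (limma) and missed the threshold with a pseudocount of 64.

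In groups of 4, an array whose gap to its nearest neighbor exceeds a set share of the group's range stands apart, and chance alone marks about 1 in 20 groups. Chga read 908 in hemizygous tumor 4 and between 332.9 and 406.7 in the other 3 tumors. Npy read 192 in the same tumor and between 13.8 and 43.5 in the others. Chgb read 1045 in wild-type ganglion 2 and between 1317 and 1370 in the other 3 ganglia.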

How the results depend on the processing

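The calls are from 2 arrays a culture. When the difference had to exceed 2-fold, 1324 genes passed between the cultures (681 higher and 643 lower), and 1305 between the sphere and tissue differences (749 above and 556 below). With the beta-actin ratio as a covariate, 2825 passed between the cultures (1606 higher, 1219 lower), 2607 of them called in the same direction without it. Leaving out an array in turn gave 4139 to 5858 genes between the cultures (2521 to 3536 higher, 1607 to 2322 lower) and 3658 to 5351 for the gap to the tissue difference (2005 to 3006 above, 1653 to 2345 below). With only the arrays compared in the fit, 4290 and 3598 passed. Quantile normalization gave 3307 higher and 2395 lower. Without the 3 arrays with intensities over 10000, an alternative chosen after seeing the data, the counts were 5866 and 6536. The difference of Ccnd1, -0.25 with all arrays, was 0.82 without neurosphere 2 and -1.33 without neurosphere 1, and the cause was not tested. Of 146 named genes called between the cultures, 102 kept the call in the alternatives run other than the 2-fold test, and 44 lost it in at least 1; 32 of the 146 lost it with the beta-actin ratio. With the GAPDH ratio, 11 of the 146 lost it. With the mean of all probe sets of a gene, 7 lost it, among them Dbh, Eng, Hoxa5, Mnt and Spry4. Of the 283 called genes among list members and named genes, 89 lost the call with the beta-actin ratio and 31 with the GAPDH ratio. Calls were also lost when a sphere array was left out, and there no difference changed sign.

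The replicate numbers of the 2 cultures share no recorded pairing, and the deviations of same-numbered arrays correlated at 0.02. With the replicate number as a block, 5206 genes passed between the cultures and 3221 for the gap to the tissue difference (1756 above, 1465 below). Dim genes are limited by the signal over background, since no detection calls were used.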
